A study of Mus musculus with 6 samples.

Results

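The genes described here are 9 oncofetal and liver tumour markers: Afp, H19, Igf2, Igf2bp3, Gpc3, Ly6d, Cd24a, Golm1 and Tspan8. They were listed by symbol and found by their Ensembl identifiers, 9 of the 56847 gene rows of the deposited tables. The members were selected on their counts in these same libraries, with the diet contrast already known, so each member's difference between diets is given as a description with its error and without a p-value. The libraries were made from mouse liver, 3 of animals given normal diet and 3 of animals given CDAHFD, a high-fat diet without choline and with a defined amino acid content that brings on steatohepatitis. No transgene, allele or drug is named for either group, and strain, age, sex and feeding time are not given there. The labels do not tie libraries to animals, so errors and p-values measure only the spread between these samples, which may be technical. The 3 libraries of each diet held 21986215 to 25628531 counts.

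Oncofetal genes are active in the fetal liver, are silenced around birth and can come back in regenerating liver and in hepatocellular carcinoma. Afp encodes alpha-fetoprotein, the fetal relative of albumin. H19, a maternally expressed imprinted long noncoding RNA, and Igf2, the paternally expressed growth factor gene beside it, share an imprinting control region. In mice the zinc finger and homeobox repressor Zhx2 acts on Afp, H19 and Gpc3 after birth, and the repressor Zbtb20 acts on Afp. The other members are used to mark liver tumour cells or tumour-initiating cells, and several of them also mark bile duct or immune cells.

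Of the 9 members, 7 had enough counts to be tested (a minimum of about 10 counts in the 3 libraries of a diet, applied by edgeR). By edgeR's quasi-likelihood test with an adjusted p threshold of 0.05, 6 of these 7 were called higher on CDAHFD and 0 lower, where 28.5% of the 14215 genes tested were called higher and 23.5% lower. Gpc3 did not pass, and Igf2bp3 and Igf2 were too sparse for the filter. In either direction 52.1% of genes were called, and 18.4% were called at least 2-fold higher. The CPM ranges of the diets did not overlap for 8 of the 9 members (7 higher on CDAHFD, Gpc3 lower), where among genes tested this held for 60.6%, with 32.2% higher and 28.4% lower. Because the members were picked with this contrast in view, nothing is read from these counts. In CPM (counts scaled to 1000000 per library by TMM, which assumes that most genes do not differ), the members went from barely counted to abundant, as shown in the plot of CPM by library.

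**Figure D1:**
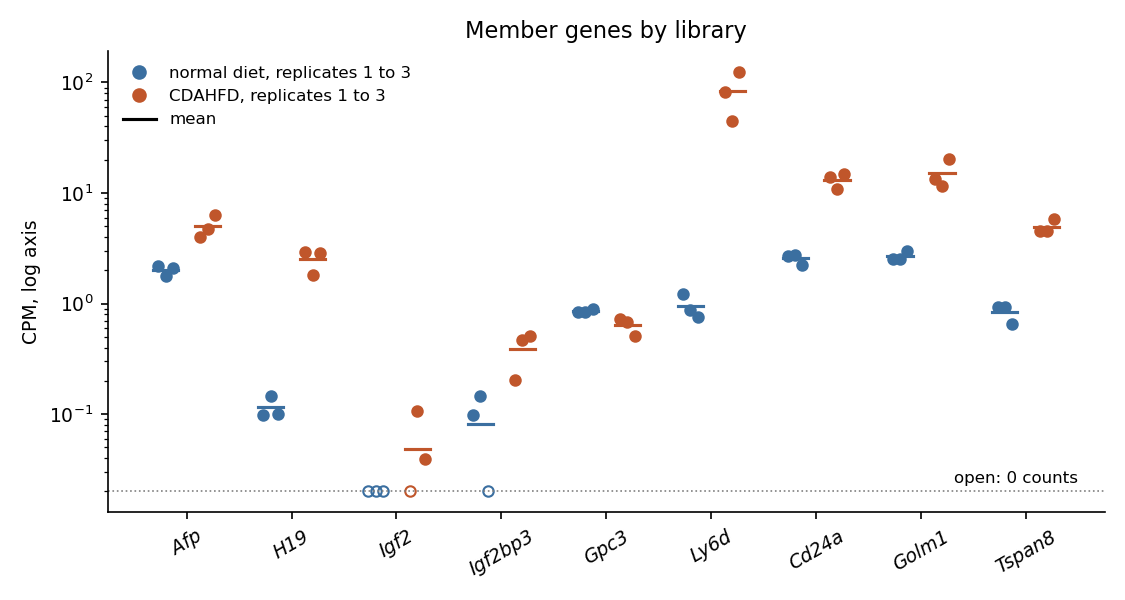
CPM of each member in each library on a log axis, with normal diet in blue, CDAHFD in orange, bars at the group means and open circles for 0 counts. The groups do not overlap for Afp, H19, Ly6d, Cd24a, Golm1, Tspan8 and Igf2bp3, where CDAHFD is higher. Those of Gpc3 do not overlap either, with CDAHFD lower, and lie within 0.507 to 0.9 CPM in all 6 libraries.

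Afp, the fetal serum protein gene, stood at 2.21, 1.76 and 2.1 CPM in normal diet replicates 1 to 3 and at 4.01, 4.72 and 6.27 CPM in CDAHFD replicates 1 to 3. Each CDAHFD library lay above every normal diet library. The log2 fold change of CDAHFD over normal diet was 1.30 ± 0.23 (SE, n = 3 per diet), 2.47-fold, the smallest of the 6 members called. Its reads numbered 45, 36 and 42 for normal diet and 99, 132 and 161 for CDAHFD, which makes it a rare transcript in either group.

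Albumin gives the scale of that level. Alb, which lies next to Afp in the genome and replaces it as the main serum protein after birth, took 92700 to 111049 TPM (transcript abundance adjusted for gene length, summing to 1000000 per library) on normal diet and 92700 to 100752 on CDAHFD. Afp took 1.34 to 1.54 TPM and 3.74 to 5.97 TPM. The ratio of Afp to Alb TPM, times 1000000, was 12.1 to 15.9 on normal diet and 37.2, 42.7 and 64.4 in CDAHFD replicates 1, 2 and 3, a value taken within each library and so not touched by the scaling of libraries. All 3 other albumin family members were called lower with TMM. Afm, the vitamin E-binding relative on the other side of Afp, fell by 0.75 ± 0.12 (edgeR adjusted p = 4.40e-04), Alb by 0.47 ± 0.15 (adjusted p = 0.0236) and Gc, the vitamin D-binding protein gene, by 0.39 ± 0.12 (adjusted p = 0.021). Only Afm kept its call with total counts. With the hepatocyte markers as the scale, 0 kept it, and Alb (0.06) and Gc (0.14) changed sign. Alb is itself among the markers that set this scale, so its value there is partly fixed by the scaling. Leaving out normal diet replicate 1 or CDAHFD replicate 3 also left 1 call of 3 (Alb at adjusted p = 0.087 and 0.068, Gc at 0.0514 and 0.0546). Without CDAHFD replicate 1 Alb was at 0.0647, and without normal diet replicate 3 Gc was at 0.0539.

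Promoter windows from RefSeq (250 bases before to 50 after the annotated start) were at hand for 6 of the 9 members. They are of build GRCm38.p6, while the submitters' processing notes name GRCm39, so the positions belong to GRCm38.p6 alone. The windows shown are those of the called members Afp, Golm1 and Tspan8, and of Gpc3, which was not called, to set them side by side. They lie at chr5:90490464-90490763 (+ strand), chr13:59675735-59676034 (- strand), chr10:115817034-115817333 (+ strand) and chrX:52613925-52614224 (- strand). Capitals mark any match, on either strand, to one of 6 short motifs. GTTAAT is the core of a site for the liver factor HNF1, TATAAA is the TATA box that positions the start of transcription, and CCAAT is the box bound by NF-Y and related factors. GGGCGG is the GC box bound by Sp1, TGANTCA is the site of the stress-responsive factor AP-1, and GGAATG is the site of the TEAD factors of the Hippo pathway.
Afp: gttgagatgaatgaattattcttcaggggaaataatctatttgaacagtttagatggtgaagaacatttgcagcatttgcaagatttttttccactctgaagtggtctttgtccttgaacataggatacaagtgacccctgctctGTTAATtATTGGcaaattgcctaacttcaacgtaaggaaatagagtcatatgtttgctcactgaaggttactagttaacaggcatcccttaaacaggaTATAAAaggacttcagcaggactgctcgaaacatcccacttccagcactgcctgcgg
Golm1: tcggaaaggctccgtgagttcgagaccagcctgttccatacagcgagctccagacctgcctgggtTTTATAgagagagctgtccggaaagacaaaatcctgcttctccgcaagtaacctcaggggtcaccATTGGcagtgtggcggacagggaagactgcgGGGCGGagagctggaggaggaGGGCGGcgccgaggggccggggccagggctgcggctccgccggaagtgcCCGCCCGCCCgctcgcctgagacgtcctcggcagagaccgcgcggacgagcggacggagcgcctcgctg
Tspan8: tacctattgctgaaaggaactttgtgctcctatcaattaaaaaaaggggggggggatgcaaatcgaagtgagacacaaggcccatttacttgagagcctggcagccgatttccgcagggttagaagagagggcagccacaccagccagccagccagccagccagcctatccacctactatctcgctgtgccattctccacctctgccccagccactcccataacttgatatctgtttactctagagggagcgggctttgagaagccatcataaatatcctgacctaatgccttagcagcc
Gpc3: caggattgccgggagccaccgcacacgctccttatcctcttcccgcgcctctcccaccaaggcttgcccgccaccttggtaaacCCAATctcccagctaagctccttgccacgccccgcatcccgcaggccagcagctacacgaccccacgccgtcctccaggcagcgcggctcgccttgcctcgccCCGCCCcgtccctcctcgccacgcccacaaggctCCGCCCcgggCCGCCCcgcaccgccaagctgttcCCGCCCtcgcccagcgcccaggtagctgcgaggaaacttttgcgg

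The windows differed in their letters. The Afp window, 40% G and C, held GTTAAT starting 105 bases before the annotated start, a CCAAT box on the other strand at 98 bases before it and TATAAA at 7 bases before it. The Golm1 window (67% G and C) held 4 GC boxes, of which the last 2 overlap, besides a CCAAT box and a TATAAA, both on the other strand. Gpc3, at 70.7%, held 4 GC boxes and a CCAAT box. In the Tspan8 window (51.7%) none of the 6 motifs was found. Among 32851 windows of the same length, median 52.7% G and C, GTTAAT was in 7.1%, TATAAA in 13.6%, CCAAT in 37.4%, GGGCGG in 35.7%, TGANTCA in 7.81% and GGAATG in 14.7%. The Afp and Golm1 windows thus both held TATAAA and CCAAT, and no motif of the 6 was in the windows of all 3 called members. A match is only a stretch of letters, and a window without one says nothing about the factor.

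Of the factors known to act on Afp in liver, Zhx2 had 19 ± 1.04 CPM (SD) on normal diet and 20.3 ± 0.525 on CDAHFD, a change of 0.09 ± 0.11 that did not pass (adjusted p = 0.5). With total counts Zhx2 was called higher, by 0.42. Zbtb20 had 114 ± 2.34 CPM on CDAHFD and 155 ± 58.1 on normal diet, where replicate 2 alone held 4479 counts against 2853 and 2124. Its difference of -0.44 ± 0.21 did not pass (adjusted p = 0.0931), passed without normal diet replicate 3 (-0.66, adjusted p = 0.00573) and with DESeq2 (adjusted p = 0.0447), and turned to 0.08 with the hepatocyte markers.

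Among the activators, Foxa3 fell by 0.72 ± 0.16 (adjusted p = 0.00341), Hnf4a by 0.59 ± 0.11 (adjusted p = 0.00109) and Foxa2 rose by 0.61 ± 0.18 (adjusted p = 0.0129). The whole list of 12 Afp regulators also holds the repressors Zhx2 and Zbtb20, and Trp53, which rose by 0.56 ± 0.11 (adjusted p = 0.0015). Of these 12, 3 rose and 5 fell with TMM, with a median of -0.45 against 0.01 for all genes tested. Scaled by total counts, 4 were called higher and 1 lower, and by the hepatocyte markers 5 and 0. The fall of Hnf4a did not pass under either (adjusted p = 0.0655 and 0.752). Hnf4a is also among the hepatocyte markers, so its result on that scale is partly fixed by the scaling.

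H19 was nearly absent on normal diet, with 2, 3 and 2 reads in replicates 1 to 3, and had 72, 51 and 74 reads on CDAHFD. In CPM that is 0.0982, 0.147 and 0.1 against 2.92, 1.82 and 2.88. The groups lay far apart, and CDAHFD replicate 2 was the lowest of its group. The log2 fold change was 4.40 ± 0.41, rank 114 from the highest of 14215 genes. H19 passed the filter only through its CDAHFD libraries. Summed over libraries, 197 reads against 7 give a ratio of 21.9 after TMM scaling of library size. Its exact 95% interval, 10.4 to 55.1, covers counting error only. On log2(TPM + 1), where the pseudocount shrinks low genes, the change was 1.83.

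The H19 transcript also carries the precursor of the microRNA miR-675. Its mature forms (RefSeq, GRCm38.p6, minus strand, chr7:142577112-142577133 and chr7:142577078-142577099) are shown because they are the small RNA products of the member that stood out at this locus. Capitals mark the seed, bases 2 to 8.
mmu-miR-675-5p: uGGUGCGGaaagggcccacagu
mmu-miR-675-3p: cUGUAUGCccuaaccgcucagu

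Mature microRNAs are too short for mRNA libraries of this kind, and the Mir675 row held 0 counts in all 6. The rows of Nctc1 and Ins2, further along the imprinted region, also held 0 counts in every library. Mrpl23, a mitochondrial ribosomal protein gene on the H19 side, was at 20.1 ± 4.28 CPM on normal diet and 24.2 ± 1.45 on CDAHFD and did not pass (0.27 ± 0.15, adjusted p = 0.161).

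Igf2, the growth factor gene that shares its control region with H19, had 0 reads in each normal diet library and 0, 3 and 1 in CDAHFD replicates 1 to 3. A floor of 3 counts corresponds to 0.147 to 0.15 CPM on normal diet and 0.107 to 0.122 on CDAHFD, and no library exceeded it, so no fold is given. Where H19 reached 2.07 to 3.48 TPM on CDAHFD, Igf2 reached at most 0.0566. A difference in Igf2 was not detectable at this depth.

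The partners of the IGF system had far more reads. Igf1r, the signalling receptor for both IGFs, rose by 0.73 ± 0.19 (adjusted p = 0.00777) from 3.28 ± 0.469 to 5.42 ± 0.686 CPM. Igf2r, which clears IGF2 and is itself imprinted, had 62.1 ± 3.53 and 74.9 ± 11.6 CPM and did not pass (0.27 ± 0.12, adjusted p = 0.0839), but was called with total counts at 0.60 (adjusted p = 0.00182). Igf1, the adult liver's main IGF, fell by 0.80 ± 0.15 (adjusted p = 9.49e-04), and Insr, the insulin receptor gene, by 0.74 ± 0.12 (adjusted p = 4.28e-04). Neither fall passed with the hepatocyte markers (adjusted p = 0.0763 and 0.204).

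Igfbp7, a low-affinity binding protein made by vessel and stellate cells, rose most in this list, by 1.29 ± 0.10 (adjusted p = 1.79e-06). Of 14 genes of the IGF list, 5 rose and 3 fell with TMM, with a median of 0.25 (7 and 2 by total counts, 9 and 0 by the hepatocyte markers). Without CDAHFD replicate 1 only 3 were called higher, Igfbp2 and Igfbp3 having lost their calls (adjusted p = 0.174 and 0.0685).

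Other imprinted genes included some of the larger changes. Meg3 and Rian, maternally expressed noncoding RNAs of the Dlk1 region, rose by 3.52 ± 0.46 (adjusted p = 7.98e-05) and 3.05 ± 0.39 (adjusted p = 6.38e-05). Meg3 had 23.4, 40.2 and 11.2 CPM in CDAHFD replicates 1, 2 and 3 against 1.28 to 3.53 on normal diet, so its highest library was the one in which H19 was lowest. Plagl1, a zinc finger gene known to act on the imprinted network, rose by 1.76 ± 0.24 (adjusted p = 1.19e-04). Dlk1, a fetal liver progenitor marker, had 0 to 1 reads on normal diet and 3, 4 and 0 on CDAHFD.

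Of 22 imprinted genes listed, 16 were tested, 8 rose and Slc38a4, an amino acid transporter gene, fell by 0.97 ± 0.16 (median 0.64; 11 and 1 by total counts, 13 and 1 by the hepatocyte markers). Calls of the smaller rises depended on single libraries. Mest was at adjusted p = 0.0572 without CDAHFD replicate 1 and Ndn at 0.0532 without CDAHFD replicate 3. Cdkn1c was at 0.0694 without normal diet replicate 1 and at 0.0535 and 0.0542 without CDAHFD replicates 1 and 3. Nnat rose by 2.12 ± 0.52, and by 2.89 without normal diet replicate 1.

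Igf2bp3, an RNA-binding protein gene of fetal tissue and tumours whose product binds Igf2 mRNA among others, had 2, 3 and 0 reads on normal diet and 5, 13 and 13 on CDAHFD. Each CDAHFD library exceeded each normal diet library, at 0.203, 0.465 and 0.507 CPM against at most 0.147. The summed reads, 31 against 5, give a ratio of 4.82 after TMM scaling of library size. Its exact 95% interval, 1.86 to 15.9, covers counting error only. It was below the filter and has no fitted value in the main comparison.

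Its relatives split. Igf2bp1 had 0 reads in all 6 libraries. Igf2bp2, the member of the family that adult tissues express, rose by 1.77 ± 0.25 (adjusted p = 1.42e-04), from 1.15 ± 0.345 to 3.95 ± 0.318 CPM. Lin28a, Lin28b, Sall4 and Sox11, regulators of embryonic and fetal cells, likewise had 0 reads throughout, which allows up to 3 counts per library. Sox4, a progenitor transcription factor gene, rose by 2.43 ± 0.36 (adjusted p = 1.89e-04), and Sox9, a bile duct and progenitor factor, by 1.08 ± 0.25 (adjusted p = 0.00421).

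Of the 15 other oncofetal genes listed only 6 passed the filter, which favours genes that are high on 1 diet, and 5 of these rose. Tff3, the sixth, did not pass (-1.13 ± 0.67). Its level on normal diet rested on replicate 1, with 74 reads against 4 and 22, and without that library its change was 0.21. Without normal diet replicate 2 it was called lower, at -1.66 (adjusted p = 0.0155).

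Gpc3, a glypican whose heparan sulfate-bearing core protein sits on the surface of liver tumour cells, was the tested member that did not pass. It had 17, 17 and 18 reads on normal diet and 18, 19 and 13 on CDAHFD, or 0.835, 0.833 and 0.9 CPM against 0.729, 0.679 and 0.507. With TMM all CDAHFD libraries were slightly lower, at a log2 fold change of -0.42 ± 0.32. With total counts the difference was -0.10 ± 0.32, and with the hepatocyte markers it was 0.10 ± 0.38. The summed reads, 50 against 52, gave a ratio of 0.747 after TMM scaling of library size. Its exact 95% interval, 0.497 to 1.12, covers counting error only.

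Gpc4, which lies beside Gpc3, was the most abundant of the tested glypicans at 78.4 ± 3.3 and 67 ± 3.51 CPM and did not pass (-0.23 ± 0.10, adjusted p = 0.0719). Gpc1 rose by 1.73 ± 0.16 (adjusted p = 5.33e-06) from 12.7 ± 1.91 to 41.9 ± 7.45 CPM, and Gpc6 by 1.18 ± 0.21 (adjusted p = 5.94e-04). Gpc2 had 0 to 2 reads per library.

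Ly6d, a small GPI-anchored surface protein gene of the Ly6 family known from B cell progenitors and stratified epithelia, showed the largest difference of the members. It had 1.23, 0.882 and 0.75 CPM on normal diet and 81.8, 44.6 and 125 CPM on CDAHFD. In reads this is 25, 18 and 15 against 2020, 1248 and 3212. The log2 fold change was 6.45 ± 0.40, 87.4-fold, rank 34 from the highest of 14215 genes. The CDAHFD libraries themselves spread 2.8-fold, more than for any other tested member, with replicate 3 highest and replicate 2 lowest.

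Lynx1, an immediate neighbour of Ly6d and a modulator of nicotinic receptors, rose by 2.44 ± 0.35 (adjusted p = 1.42e-04), from 1.04 ± 0.228 CPM to 4.94, 3.54 and 8.54 CPM in CDAHFD replicates 1 to 3. This is the order of libraries of Ly6d, and also that of Cd24a and Golm1. Of all genes called higher, 47.2% were highest in CDAHFD replicate 3 and 45.2% were lowest in CDAHFD replicate 2. Ly6k and Slurp2, also nearby, had at most 1 read per library. Further Ly6 genes rose, with Ly6c2, a monocyte surface gene, at 3.86 ± 0.25 (adjusted p = 4.68e-07), Ly6a at 2.15 ± 0.20 (adjusted p = 5.42e-06) and the interferon-responsive Ly6e at 2.05 ± 0.15 (adjusted p = 1.02e-06). Of 15 listed relatives 6 were tested and 4 rose (median 2.10, total counts 5 higher, hepatocyte markers 6). Ly6c1 and Ly6c2 are near-identical, and reads that the authors' counting could split between such copies make their single values uncertain.

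B cell markers bear on Ly6d as a gene of that lineage. Their summed level was 17.5 to 29.8 CPM on normal diet and 22.6 to 26.5 on CDAHFD, with 3 of 7 higher and 1 lower with TMM, and 3 higher and 0 lower by total counts or by the hepatocyte markers. The lower one, Ighm, lost its call without normal diet replicate 1 or CDAHFD replicate 1 or 2 (adjusted p = 0.133, 0.0895 and 0.0508). Of the higher ones Cd79a lost its call when any library but CDAHFD replicate 3 was left out (adjusted p = 0.055 to 0.158). Plasmacytoid and other dendritic cell markers, another lineage that can carry Ly6d, summed to 165 to 266 and 291 to 304 CPM, with 6 of 8 higher. Most of that sum was Bst2, which overlapped and did not pass (183 ± 54.3 and 217 ± 4.1 CPM). The largest rise was that of Itgax (0.874 ± 0.231 and 48.7 ± 3.63 CPM). The part of B cells and dendritic cells in the Ly6d difference was not tested. In bulk tissue, more cells of a type and more RNA per cell cannot be told apart.

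Cd24a, a heavily glycosylated GPI-anchored protein gene of progenitor, bile duct and immune cells, had 2.7, 2.74 and 2.25 CPM on normal diet and 13.9, 10.8 and 14.9 CPM on CDAHFD. The groups were separate by a wide margin. The log2 fold change was 2.36 ± 0.18, 5.14-fold. Siglecg, an inhibitory receptor that binds CD24 on B and myeloid cells, rose by 1.88 ± 0.41 (adjusted p = 0.00273) but stayed at 0.799 ± 0.142 CPM. The P-selectin gene Selp had 1.56 ± 0.53 and 2.67 ± 1.05 CPM and did not pass (0.77 ± 0.34, adjusted p = 0.0817). Selp passed without CDAHFD replicate 2 (adjusted p = 0.031), with total counts (0.0159) and with no filter (0.0167).

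Tspan8, a tetraspanin gene of gut, duct and tumour epithelium, had 0.933, 0.931 and 0.65 CPM on normal diet and 4.5, 4.54 and 5.88 CPM on CDAHFD. Its highest library stood 1.44-fold above its lowest on normal diet and 1.31-fold on CDAHFD. The log2 fold change was 2.56 ± 0.24, 5.9-fold. Among other tetraspanins Cd63, a late endosome and lysosome membrane protein gene, rose by 4.58 ± 0.15 (adjusted p = 8.06e-09), from 3.42 ± 0.111 to 81.9 ± 12.8 CPM. Tspan13 rose by 2.56 ± 0.23 (adjusted p = 4.42e-06) and the leukocyte gene Cd37 by 2.44 ± 0.19 (adjusted p = 1.67e-06).

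Of 22 listed tetraspanins 20 were tested, 12 rose and 2 fell, with a median of 0.64 (16 and 1 by total counts, 17 and 1 by the hepatocyte markers). Among them Tspan5 lost its call without any of 4 libraries (normal diet replicates 1 and 2, CDAHFD replicates 1 and 3, at adjusted p = 0.0601 to 0.097) and Tspan14 without CDAHFD replicate 3 (0.0928), while Tspan4 passed without normal diet replicate 3 (0.0446). Tspan1 had 0 reads throughout. Tspan2 did not pass (0.13 ± 0.28) and changed sign without normal diet replicate 1 (-0.08) or CDAHFD replicate 3 (-0.11).

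Golm1, a Golgi membrane protein gene whose product is shed into serum in liver disease and carcinoma, had 2.55, 2.55 and 3 CPM on normal diet and 13.4, 11.6 and 20.3 CPM on CDAHFD. Replicate 3 stood above the other CDAHFD libraries, and the lowest of them was still well above the normal diet range. The log2 fold change was 2.48 ± 0.22, 5.58-fold.

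Of 7 other Golgi membrane genes tested 0 rose and 1 fell with TMM (1 and 0 by total counts, 3 and 0 by the hepatocyte markers), at a median of -0.21. Golga5, a golgin, fell by 0.45 ± 0.10 (adjusted p = 0.00336), a call lost with total counts (-0.13) and turned to 0.07 with the hepatocyte markers. Golgb1, the giantin gene, was at -0.24 ± 0.13 (adjusted p = 0.154) and at 0.08 with total counts. Casc4, the closest relative of Golm1 (also named Golm2), had 5.58 ± 1.81 and 8.11 ± 1.22 CPM and did not pass (0.54 ± 0.23, adjusted p = 0.0698), but passed with total counts (0.86) and without normal diet replicate 2 (0.72, adjusted p = 0.0352). Without normal diet replicate 2 Gorasp1 was called lower (adjusted p = 0.0455), and without normal diet replicate 3 Golga4 was (adjusted p = 0.0211).

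The choice of scaling shifted the members along with all other genes. The median log2 fold change of all genes tested was 0.01 with TMM, 0.34 by total counts and 0.54 by the hepatocyte markers. Higher genes made up 54.8% of all calls with TMM, 84.5% by total counts and 93.2% by the hepatocyte markers. Scaled by total counts, 44% of genes tested were called higher and 52.1% in either direction. Scaled by the hepatocyte markers, these shares were 56.4% and 60.5%. All 6 called members kept their call and direction under each of the 3 scalings, as the plot of changes by scaling shows.

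**Figure D2:**
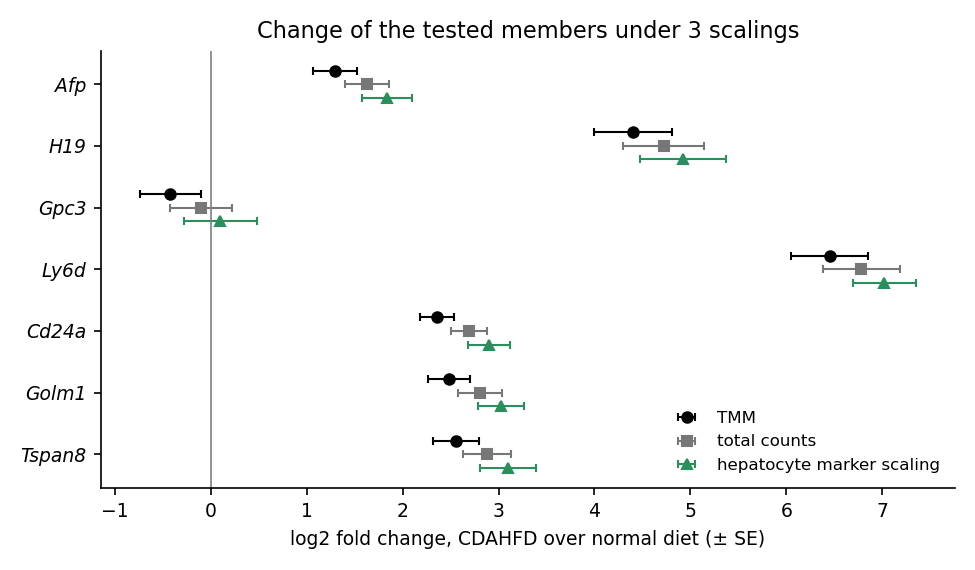
Log2 fold change of CDAHFD over normal diet for the 7 tested members, with SE bars, under TMM (circles), total counts (squares) and scaling to the hepatocyte markers (triangles). Afp runs from 1.30 to 1.84 and Ly6d from 6.45 to 7.02, while Gpc3 runs from -0.42 to 0.10.

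Levels per gene length give an order of the members. On normal diet Ly6d (3.1 ± 0.755 TPM) and Cd24a (2.41 ± 0.334) came first with overlapping ranges, then, apart from these, Golm1 (1.48 ± 0.121), Afp (1.45 ± 0.104) and Tspan8 (1.2 ± 0.262), in which neighbours overlap. Gpc3 (0.771 ± 0.0348) was separate from Tspan8 above and from H19 (0.106 ± 0.031) below. Igf2bp3 was at 0.0248 ± 0.0232 TPM and Igf2 at 0.

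On CDAHFD Ly6d stood alone at 355 ± 179 TPM. Cd24a (16 ± 3.01), Golm1 (10.7 ± 3.53) and Tspan8 (9.15 ± 1.67) followed with overlapping neighbours. Afp (4.65 ± 1.17), H19 (3 ± 0.803), Gpc3 (0.739 ± 0.126) and Igf2bp3 (0.15 ± 0.0634) were each separate from the next. H19 thus passed above Gpc3 between the diets, and Tspan8 above Afp, while the other members kept their places.

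The members also varied among the CDAHFD libraries. Of the 7 tested, 5 were highest in CDAHFD replicate 3 (Afp, Ly6d, Cd24a, Golm1 and Tspan8), which was also the highest library for 36.3% of all genes tested and for 47.2% of genes called higher. H19 and Gpc3 were highest in CDAHFD replicate 1. The coefficient of variation over the CDAHFD libraries was 48.1% for Ly6d, 30.3% for Golm1 and 15.9% to 24.5% for the others.

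**Figure D3:**
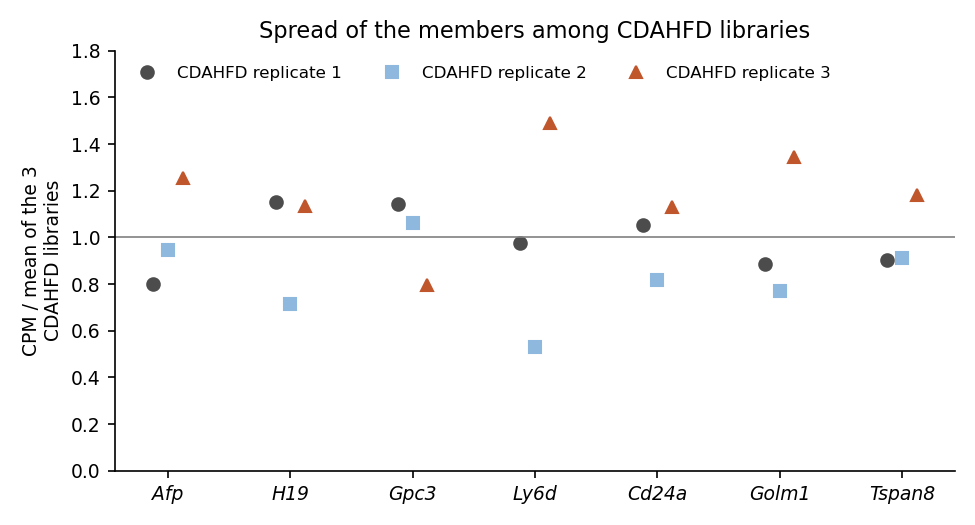
CPM of the 7 tested members in each CDAHFD library divided by the mean of the 3, on a linear axis from 0. Replicate 3 (triangles) is the highest point for 5 members and the lowest for Gpc3, and Ly6d has the widest spread, with its highest library 2.8-fold above its lowest.

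Over the 6 libraries, members with similar changes can be compared by the root mean square difference of their centred log2 CPM, where 0 means the same profile. Cd24a and Tspan8 were the most alike pair (0.149), followed by Cd24a and Golm1 (0.225) and Golm1 and Tspan8 (0.265). Gpc3 and Ly6d were the least alike (3.37). The measure rests on 6 libraries in 2 groups and mostly reflects the size of the diet difference.

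By the same measure over all genes, those nearest to H19 were Vcan, a matrix proteoglycan gene (0.174), the chemokine receptor gene Cxcr4 (0.184) and the complement receptor gene C3ar1 (0.195). Golm1 was nearest to the collagen gene Col6a1 (0.0603), Npdc1 (0.0996) and Islr (0.117). Tspan8 was nearest to Flt3, a dendritic cell receptor gene (0.0384), Aebp1 (0.104) and Tspan13 (0.113), and Cd24a to Ppl (0.0825), Dusp5 (0.092) and Psd4 (0.0968). Afp had Kcnj8 (0.0841), Lamb2 (0.103) and Rad9a (0.106) as its nearest genes. Gpc3 was nearest to Snrpd3 (0.0253), Rbm7 (0.0401) and Paip2 (0.057).

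Ly6d had no close match. The nearest was Sprr1a, a cornified envelope protein gene of stratified epithelium, at 0.232, with 1, 0 and 0 reads on normal diet and 210, 103 and 212 on CDAHFD. Next came the metalloprotease gene Adam8 (0.416), which went from 0.445 to 42.9 CPM on average, and Vsig8 (0.561), with 0 reads in each normal diet library and 109, 170 and 138 on CDAHFD.

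Further liver tumour markers were mostly higher too. Lcn2, an iron-binding lipocalin of injured liver, rose by 6.98 ± 0.22 (adjusted p = 5.98e-09), from 3.23 ± 0.842 to 407 ± 72.5 CPM. Slpi, a secreted protease inhibitor gene, rose by 3.66 ± 0.36 (adjusted p = 8.61e-06), Spp1, the osteopontin gene, by 2.72 ± 0.13 (adjusted p = 5.55e-08) and Epcam, an epithelial adhesion gene, by 2.25 ± 0.28 (adjusted p = 6.12e-05). Epcam had 5.99, 4.43 and 9.2 CPM in CDAHFD replicates 1 to 3.

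Of 20 listed 18 were tested and 14 rose, with a median of 1.70 against 0.01 over all genes, and 0 fell (15 and 0 by total counts, 17 and 0 by the hepatocyte markers). This list, like the others, was chosen with earlier results of these data known. Its counts and adjusted p-values are thus given as a description. Tert did not pass but was called lower without CDAHFD replicate 2 (adjusted p = 0.00887), Robo1 was called higher without normal diet replicate 2 (adjusted p = 0.00237), and Glul lost its call without any 1 of the 6 libraries. Hspa1a rose by 2.99 ± 0.53, or by 3.76 without normal diet replicate 1, from 5, 1 and 2 reads. Hspa1b, the other Hspa1 gene listed, had far more reads and did not pass. It stood at 13.6 ± 0.801 and 12.6 ± 0.817 CPM (-0.10 ± 0.12, adjusted p = 0.521). Spink1 went from 0, 1 and 0 reads to 20, 15 and 25. Both Spink1 and Hspa1a passed the filter only through their CDAHFD libraries, which favours a rise in advance. Spp1, Epcam and Krt19 also stand in the cholangiocyte list.

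Proliferation genes rose in 10 of 12 cases, with a median of 2.56 (total counts 11, hepatocyte markers 12, and 0 lower in each). Mki67 rose by 2.51 ± 0.21 (adjusted p = 2.48e-06) to 13.8 ± 2.09 CPM and Top2a by 2.61 ± 0.22 (adjusted p = 2.87e-06). Plk1, a mitotic kinase gene, rose by 3.48 ± 0.31 (adjusted p = 4.34e-06), Ccnb1 by 3.16 ± 0.30 (adjusted p = 6.74e-06) and Ccna2 by 2.94 ± 0.29 (adjusted p = 8.54e-06). Pcna did not pass (-0.07 ± 0.17). Aurka passed without normal diet replicate 2 (adjusted p = 0.0054). Bub1, with 0, 2 and 1 reads on normal diet, had 34, 24 and 24 on CDAHFD. Genes such as Bub1, Ccnb1 and Plk1 passed the filter only through their CDAHFD libraries, which favours a rise in advance.

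**Figure D4:**
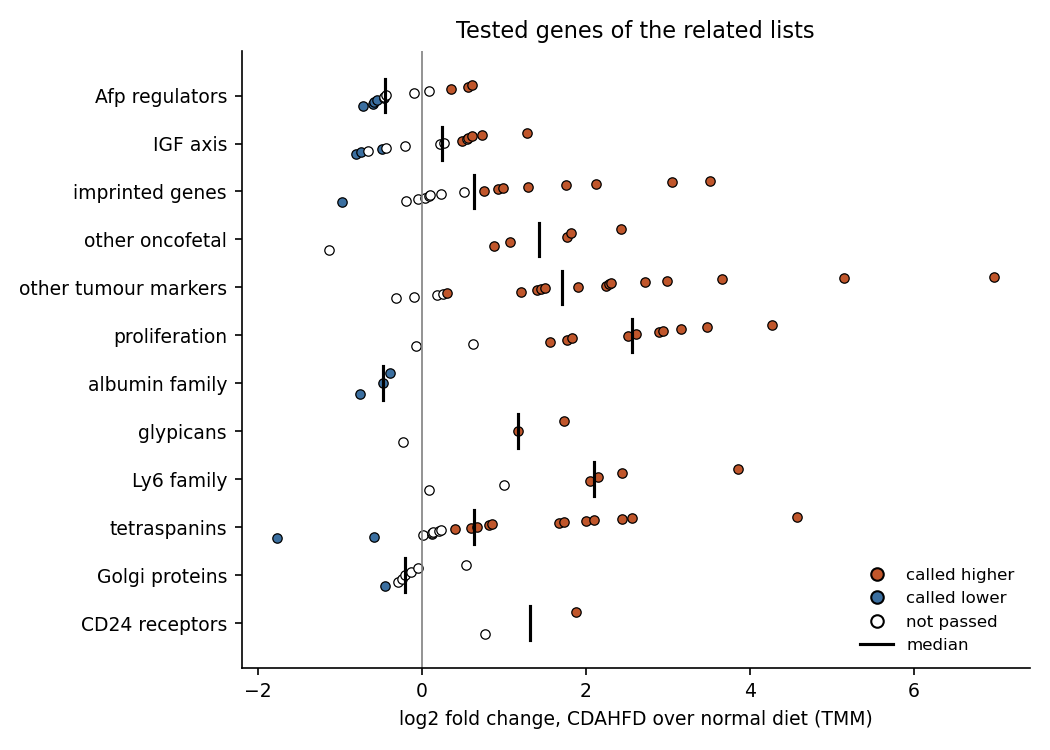
Log2 fold change (TMM) of each tested gene in the 12 related lists, filled orange where called higher, blue where called lower and white where not passed, with a bar at each list's median. The proliferation, Ly6 and tumour marker lists have medians of 2.56, 2.10 and 1.70, while the Afp regulators lie at -0.45 and the albumin family at -0.47.

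Markers of the cell types that can carry these genes moved with the diet as well. The hepatocyte markers defined the tissue, with a summed level of 155017 to 173842 CPM on normal diet and 118280 to 131758 on CDAHFD. This fall depended on the scaling. With TMM 8 of 10 were called lower and 0 higher, and by total counts 4 were called lower and 1 higher. Most of the sum was Alb, whose TPM ranges overlapped between the diets. Cholangiocyte markers, which bear on Cd24a, Tspan8 and Golm1, were higher in 8 of 9 tested, and their sum was 167 to 221 CPM on normal diet and 342, 343 and 424 in CDAHFD replicates 1 to 3. That sum came mostly from Aqp1, which did not pass (152 ± 24.2 and 164 ± 30.4 CPM), and Spp1. Most of its rise came from Spp1 (24.2 ± 1.67 and 159 ± 20.2 CPM). Stellate cell and myofibroblast markers were higher in 9 of 9, with sums of 299 to 364 and 1280 to 1520 CPM. Macrophage markers were higher in 7 of 8 (359 to 485 and 1700 to 1800 CPM), neutrophil markers in 5 of 5 (2.16 to 3.6 and 22.4 to 27.6 CPM) and T and NK cell markers in 5 of 7 (3.34 to 6.9 and 11.6 to 18.5 CPM).

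Mesothelial markers, with 3 of 6 tested and 2 higher, overlapped in their sums (2.1 to 5.01 and 2.75 to 4.91 CPM), as did endothelial markers (290 to 320 and 317 to 362 CPM, 2 of 7 higher) and erythroid markers (340 to 507 and 281 to 461 CPM, 2 of 5 lower). By total counts 5 endothelial markers were called higher and 1 erythroid marker lower, and by the hepatocyte markers 6 endothelial and 2 erythroid markers were called higher and 0 lower. Exocrine pancreas and intestinal epithelium also express Tspan8. The pancreas markers summed to at most 0.729 CPM with Prss2 at 0 reads, and of the intestinal markers Cdx2 was at 0 reads and Cdx1 at no more than 1 read per library. The intestinal sum, 46.9 to 67 and 64.5 to 77 CPM, came mostly from Fabp2 and Lgals4. Fabp2, a fatty acid-binding protein gene, rose by 0.43 ± 0.14 (edgeR adjusted p = 0.0235), a call lost without normal diet replicate 1 or 3 or CDAHFD replicate 1 (adjusted p = 0.115, 0.0788 and 0.0941). Vil1, the villin gene of brush borders, was below the filter with 3, 2 and 1 reads on normal diet and 19, 7 and 24 on CDAHFD, without overlap. The part of these cell types in the members' differences was not tested.

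**Figure D5:**
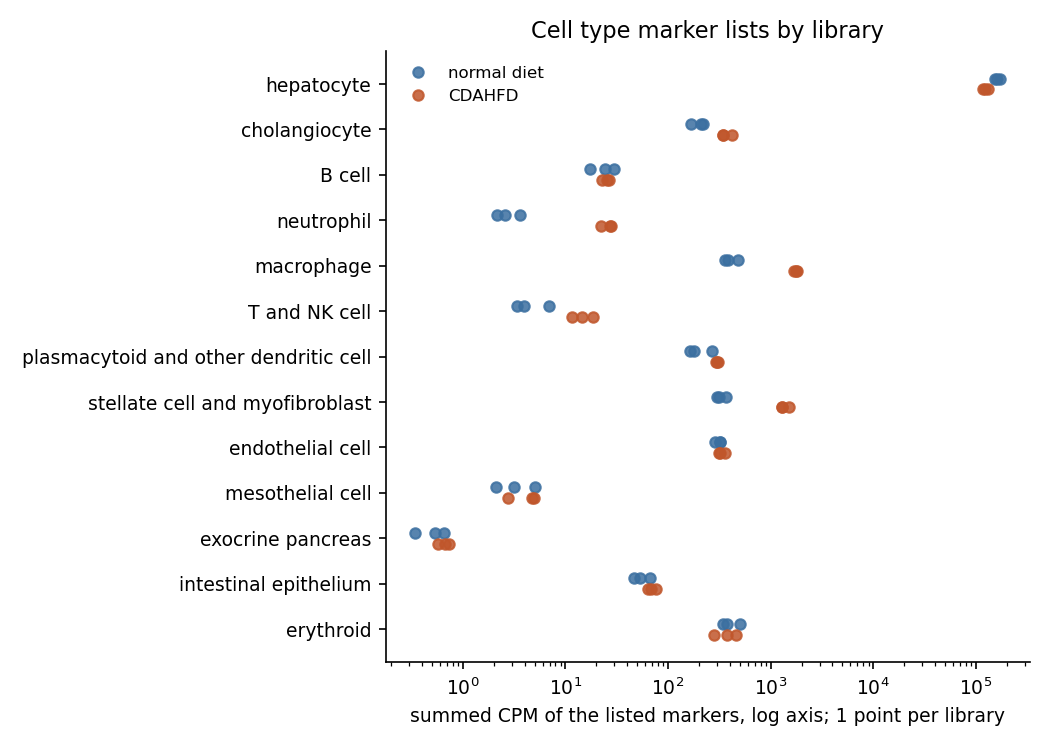
Summed CPM of each cell type marker list in each library on a log axis, with normal diet in blue and CDAHFD in orange. In CPM scaled by TMM, the groups are separate and higher on CDAHFD for the cholangiocyte, neutrophil, macrophage, T and NK cell, dendritic and stellate lists. They are separate and lower for hepatocytes, and overlap for the others. The cholangiocyte sum is mostly Aqp1 and Spp1, the dendritic sum mostly Bst2 and Itgax, and the hepatocyte sum mostly Alb.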

How the data were processed

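RNA-seq libraries of liver, made with a stranded mRNA kit per the labels, were analysed for 3 samples per diet. STAR 2.7.11a and GRCm39 are named in the submitters' processing notes. No counting tool, annotation, strand setting or gene length is given there, so reads of overlapping or antisense genes cannot be told apart. The authors deposited raw read counts per Ensembl gene, and TPM that sum to 1000000 per library. Columns beginning with CD were read as CDAHFD and with ND as normal diet, with the replicate numbers of the titles. Symbols matched 51911 of 56847 IDs (Golm2 and Tf were found as Casc4 and Trf).

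Genes were kept with filterByExpr (minimum count 10), leaving 14215 of 26131 genes with any count. A gene that is high on 1 diet alone passes this filter, which favours a call toward that diet. TMM gave the scaling (factors 0.877 to 0.907 on normal diet, 1.09 to 1.14 on CDAHFD), and the quasi-likelihood test of edgeR 4.0.16 (R 4.3.3) compared the diets, its p-values adjusted by Benjamini-Hochberg across the tested genes. SE is the coefficient over the root of F. Alternatives used RLE, total counts, 10 hepatocyte markers as the scale, other filters, DESeq2 1.42.0, limma 3.58.1 (voom and log2 TPM with a pseudocount of 1 or 0.1), a replicate block, and each library left out. The hepatocyte markers were Alb, Ttr, Apoa1, Apob, Serpina1c, Cps1, Fgb, Trf, Hnf4a and Cyp2e1. The pipeline was tested on simulated data. Libraries of one diet differed beyond sampling noise (chi-square over its degrees of freedom 17.5 to 39.7).

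The members and the gene lists were chosen with earlier results of these data known. Named genes are the members, the first 2 genes of each list, up to 3 called genes of each list with a mean of at least 1 CPM and the largest change, and the 3 genes nearest each fitted member in profile. Any other gene was named after its values were seen.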

Additional observations from a re-analysis of the deposited data

How the results depend on the processing

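The count of 6 members called higher was 6 or 7 under all 16 alternatives, where the seventh was Igf2bp3 (no filter, and without normal diet replicate 2 or CDAHFD replicate 1), and 0 members were called lower in any. The count of all genes called, 7404, lay between 6531 and 8607. Leaving out each library in turn gave 1.08 to 1.40 for Afp, 4.25 to 4.60 for H19, 6.01 to 6.72 for Ly6d, 2.23 to 2.45 for Cd24a, 2.18 to 2.60 for Golm1 and 2.39 to 2.63 for Tspan8. Gpc3 stayed between -0.55 and -0.31 when a library was left out and turned to 0.10 with the hepatocyte markers.

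The same scaling turned Alb (0.06), Gc (0.14), Golga5 (0.07), Golgb1 (0.28), Paip2 (0.11), Rbm7 (0.07), Snrpd3 (0.14) and Zbtb20 (0.08). Of these, Alb is among the markers that set the scale. Golgb1 also turned with total counts (0.08), log2(TPM + 1) (0.13) and log2(TPM + 0.1) (0.14), and Tspan2 without normal diet replicate 1 (-0.08) or CDAHFD replicate 3 (-0.11), its range when 1 library was left out being -0.11 to 0.34. The cause was not tested.

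With the replicate block 7357 genes were called and the members gave the same 6 and 0. Same-numbered libraries correlated in their deviations at -0.0471, 0.0688 and 0.118, and differently numbered ones at -0.145 to 0.0889. With 3 libraries per diet, such values cannot decide whether the numbers pair the samples. Casc4 (0.57, adjusted p = 0.0414) and Selp (0.76, adjusted p = 0.0345), not called under the plain design, passed with the block, and Glul (0.31, adjusted p = 0.0745) did not. Among the other listed genes Cebpb, Igfbp1 and Cd4 gained a call and Apob and Cd79a lost theirs. Members with few reads (Igf2, Igf2bp3, H19 on normal diet, Gpc3) are limited by depth.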
